A study of Homo sapiens with 48 samples.

Results

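The hypoxia-inducible factors (HIFs) and the enzymes that control their turnover were followed as 8 genes in HEK293T, a transformed human embryonic kidney cell line. The genes were chosen by name, with earlier results of these data known, and all 8 were among the 14685 genes counted. They comprise the alpha subunits HIF1A (ENSG00000100644) and EPAS1 (ENSG00000116016), the shared beta subunit ARNT (ENSG00000143437), the prolyl hydroxylases EGLN1 (ENSG00000135766), EGLN2 (ENSG00000269858) and EGLN3 (ENSG00000129521), the asparaginyl hydroxylase HIF1AN (ENSG00000166135), and VHL (ENSG00000134086). All 8 passed the filter on low counts, as did every other gene in the tables.

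The cells expressed NCBP1, a subunit of the nuclear cap-binding complex, fused to Halo from a plasmid, and their genotype is given as WT. In the T-REX arm, the cells received a caged precursor of 4-hydroxynonenal (HNE) that binds Halo, followed by light that frees the HNE beside NCBP1. The 3 control arms are light alone, probe alone and DMSO. By the study's methods, light alone means that cells received both the probe and light, and probe alone means that they received the probe without light. The labels name the arms only, and neither source used here says how light alone differed from T-REX in these cells. RNA was collected 3, 6 and 12 hours after the reaction, with 4 libraries for each arm at each time, which makes 48 in all. All 4 arms carried the plasmid, and the counts do not separate its NCBP1 from that of the cells. The study describes the 4 repeats of each set as independent biological replicates. Nothing in the labels states that they came from separate passages, so the p-values measure the spread between these libraries.

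When oxygen is present, prolyl hydroxylases modify the HIF alpha subunits, VHL recognizes the modified form, and the ubiquitin ligase built around VHL sends it to the proteasome. HIF1AN modifies an asparagine of the same subunits and blocks their contact with coactivators. Alpha subunits that escape pair with ARNT and bind short DNA elements near genes of glycolysis, angiogenesis and mitophagy. EGLN1 and EGLN3 are themselves known HIF target genes. Much of this control acts on protein, which was not measured here.

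Library totals ranged from 23952455 to 37099535 counts (median 29405598.5). Reads on NCBP1 made up 5.42 to 8.99% of counts in T-REX libraries, 3.19 to 6.97% under light alone, 5.41 to 8.72% under probe alone and 3.09 to 6.10% under DMSO. Of the 8 HEK293T markers listed, 7 were in the tables. Their medians ran from 22.8 CPM for HOXA10 to 484 CPM for IRS4 (read counts relative to the library total, scaled between libraries by TMM factors). Of 10 markers of other cell types, 7 were not in the tables. The rest were VIM (median 525 CPM, above IRS4), KRT18 (10.1 CPM) and COL1A1 (3.63 CPM), and VIM and KRT18 are also expressed in HEK293T. Neither VIM, COL1A1 nor KRT18 was called in any comparison with T-REX. In bulk RNA, fewer cells of a kind and less RNA per cell cannot be told apart.

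HIF proteins bind a core written ACGTG or GCGTG, and the promoters of the members were searched for these letters because 2 of the enzymes are HIF target genes. The RefSeq promoter table (GRCh38.p14, 250 bases before to 50 after each start) held 9 entries for 7 members, with none for VHL. The core was present, on either strand, in 4 of the 9 entries (44.4%), each from a different member, against 48.4% of all 35116 promoter entries. The closest match to a start was in EGLN1, 13 bases before it, and the others lay 117 bases (EPAS1), 204 bases (HIF1A, at 1 of 2 starts) and 48 bases (EGLN2, at 1 of 2 starts) before theirs. In EGLN2 the reverse-strand match starts 49 bases before the start and overlaps the forward one. The windows below run 5′ to 3′ on the gene's strand, with the core in capitals.
EGLN1, chr1:231422286-231422310, minus strand: gccgtggtgtACGTGcagagcgcgc
EPAS1, chr2:46297280-46297304, plus strand: gcctgccggcGCGTGcccgcccaca
HIF1A, chr14:61695299-61695323, plus strand: gctgagagcgGCGTGggctggggtg
EGLN2, chr19:40799133-40799157, plus strand: gggcgcggtcACGTGcccaccgggc
No core letters were found in the windows of EGLN3, ARNT or HIF1AN. The 250 bases before the EGLN3 start are shown because EGLN3 is the member on which the results turn.
EGLN3, chr14:33951075-33951324, minus strand: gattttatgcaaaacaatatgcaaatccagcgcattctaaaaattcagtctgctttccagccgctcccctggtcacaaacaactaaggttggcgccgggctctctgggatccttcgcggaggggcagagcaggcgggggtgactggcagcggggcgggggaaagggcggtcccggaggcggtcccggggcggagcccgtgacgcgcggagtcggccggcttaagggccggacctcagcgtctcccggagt
A match describes these letters and says nothing about binding, and elements farther away were not searched. Among the HIF target genes listed further on, 47 of the 53 with an entry held the core in at least 1 window, and 76.8% of their 82 entries did.

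The members covered a wide range of transcript levels. Per kilobase of exon (GENCODE 29), the medians over 48 libraries were 35.8 CPM for HIF1A and 34.8 CPM for VHL, whose ranges overlapped. ARNT followed with 15.3 CPM per kilobase and HIF1AN with 9.12 CPM per kilobase, and neither range touched its neighbors. EPAS1 (2.26 CPM per kilobase), EGLN3 (1.52), EGLN2 (0.859) and EGLN1 (0.792) were low, and the ranges of each neighboring pair overlapped. EGLN1 rested on 85 to 253 counts per library, EGLN2 on 94 to 281, EGLN3 on 138 to 622 and EPAS1 on 274 to 696, while the other 4 members had at least 2193 counts in every library. How reads shared by overlapping genes were counted is not stated. In GENCODE 29, 30.6% of the exon bases of EGLN2 also belong to the readthrough gene RAB4B-EGLN2 on the same strand, and 2.33% of those of HIF1AN belong to NDUFB8 on the other strand, so the level of EGLN2 is uncertain.

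EGLN3 was the member called most often. It fell against all 3 controls at 12 hours, to 0.674-fold of light alone, 0.615-fold of probe alone and 0.601-fold of DMSO. Genes that passed with the same sign against 2 or more of the 3 controls are called significantly differentially expressed (SDE). EGLN3 was the only SDE member at 12 hours, where 1.40% of all genes were SDE, and no member was SDE at 3 hours (0.947% of all genes) or 6 hours (0.136%).

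At 12 hours, EGLN3 measured 8.60, 9.58, 10.9 and 11.2 CPM in the T-REX libraries. Under light alone it measured 15.9, 13.2, 16.1 and 14.6 CPM, under probe alone 19.1, 15.6, 15.8 and 14.9 CPM, and under DMSO 17.7, 16.4, 19.5 and 13.5 CPM. Every T-REX library was thus lower than every one of the 12 control libraries, with means of 10.1 ± 1.21 CPM for T-REX and 14.96 ± 1.33, 16.3 ± 1.85 and 16.8 ± 2.54 CPM for light alone, probe alone and DMSO (SD, n = 4). The log2 fold change was −0.57 ± 0.12 (SE) relative to light alone (edgeR quasi-likelihood test, adjusted p = 0.00958), −0.70 ± 0.12 relative to probe alone (adjusted p = 0.00266) and −0.74 ± 0.12 relative to DMSO (adjusted p = 0.000357). The comparisons share the T-REX libraries. The calls against probe alone and DMSO held when any 1 library was left out. The call against light alone did not pass without T-REX replicate 1 (adjusted p = 0.0779) or without light alone replicate 3 (adjusted p = 0.0562).

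At 6 hours, EGLN3 measured 7.44, 8.21, 9.86 and 7.52 CPM under T-REX and 15.3, 19.6, 11.45 and 12.4 CPM under probe alone, without overlap. Its log2 fold change against probe alone was −0.83 ± 0.16 (adjusted p = 0.0335 by edgeR), a call that did not pass without probe alone replicate 2 (−0.66, adjusted p = 0.215) and in 6 other omissions. Against light alone (11.2, 13.9, 15.4 and 9.43 CPM) the difference of −0.60 ± 0.16 did not pass (adjusted p = 0.132), and nor did that of −0.56 ± 0.16 against DMSO (12.7, 11.8, 11.4 and 12.7 CPM, adjusted p = 0.117). The highest T-REX library overlapped the lowest under light alone but none under DMSO. All 3 differences were negative and their 95% intervals did not reach 0, the nearest bound being −0.23 against DMSO.

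At 3 hours, EGLN3 measured 6.95, 5.004, 8.67 and 8.02 CPM under T-REX, 6.33, 9.15, 7.41 and 9.72 CPM under light alone, 12.5, 9.73, 10.9 and 9.51 CPM under probe alone, and 11.2, 9.96, 11.1 and 11.1 CPM under DMSO. T-REX libraries lay below all those of probe alone and DMSO and among those of light alone. The log2 fold change was −0.59 ± 0.16 against DMSO (edgeR, adjusted p = 0.0285) and −0.56 ± 0.16 against probe alone (adjusted p = 0.0748). Against light alone it was −0.19 ± 0.16 (95% interval −0.51 to 0.14, adjusted p = 0.645). The call against DMSO did not pass without T-REX replicate 2 (adjusted p = 0.0803) or without DMSO replicates 1, 2 or 4 (adjusted p up to 0.0826). Whether the T-REX effect on EGLN3 differed between 12 and 3 hours was tested as an interaction, which gave −0.38 ± 0.22 for light alone (adjusted p = 0.750), −0.12 ± 0.22 for probe alone (adjusted p = 0.845) and −0.14 ± 0.22 for DMSO (adjusted p = 0.882).

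NCBP1, with reads from the plasmid and from the cells counted together, moved with some of these comparisons. At 12 hours it stood at 51945 to 63933 CPM under T-REX, above light alone (34589 to 49371 CPM) and DMSO (30797 to 40599 CPM), and overlapping probe alone (52800 to 74043 CPM). EGLN3 was lower than under probe alone, where NCBP1 overlapped, by 0.70 on the log2 scale. HEK293T markers also moved at 12 hours, with 6 of 7 called lower against DMSO, 2 against light alone and 1 against probe alone. The shares of all genes called were 10.9%, 1.29% and 0.701%, in that order. The markers' median log2 fold changes were −0.38, −0.21 and −0.05. The part of NCBP1 and of these markers in the EGLN3 result was not tested.

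The other prolyl hydroxylases gave isolated calls. EGLN1, the main oxygen-dependent regulator of HIF1A, measured 3.43, 4.86, 5.37 and 4.59 CPM under T-REX at 12 hours and 6.38, 6.46, 8.32 and 5.68 CPM under DMSO, with no overlap. Its log2 fold change of −0.56 ± 0.16 against DMSO was called (edgeR, adjusted p = 0.0284), while those against light alone (−0.36 ± 0.16, adjusted p = 0.353) and probe alone (−0.43 ± 0.16, adjusted p = 0.307) were not. The call did not pass without T-REX replicate 1 (−0.44, adjusted p = 0.119), T-REX replicate 4 (adjusted p = 0.0614) or DMSO replicate 3 (−0.44, adjusted p = 0.0909). At 3 hours the T-REX libraries for EGLN1 spread from 3.23 to 7.86 CPM, across the full range of DMSO (4.53 to 6.03 CPM), and at 6 hours they held 4.77 to 5.71 CPM.

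EGLN2, a nuclear prolyl hydroxylase, moved the opposite way at 3 hours. It measured 7.29, 7.58, 9.41 and 6.59 CPM under T-REX and 5.32, 4.81, 6.33 and 5.69 CPM under DMSO, so that the groups did not overlap. The log2 fold change was 0.48 ± 0.14 (edgeR, adjusted p = 0.0466), which did not pass in 10 of the fits that left out 1 library, among them without DMSO replicate 2 (0.42, adjusted p = 0.151). Light alone (5.42 to 7.74 CPM) and probe alone (6.35 to 7.79 CPM) lay between and overlapped T-REX. At 6 and 12 hours EGLN2 was not called, with log2 fold changes between −0.09 and 0.33 over 6 comparisons. RAB4B, the upstream neighbor of EGLN2 that shares the readthrough transcript, was called higher against DMSO at 12 hours (1.34 ± 0.36, adjusted p = 0.0183 by edgeR), from 3 to 39 counts per DMSO library and 51 to 75 per T-REX library. RAB4B was not called against light alone (0.54, adjusted p = 0.534) or probe alone (0.18, adjusted p = 0.899), and in DMSO it fell by 1.16 from 3 to 12 hours (adjusted p = 0.00581). The call against DMSO and this fall both include DMSO replicate 3 at 12 hours, which held the 3 counts. RAB4B was 0.113 CPM in that library and 0.773 to 1.24 CPM in the others of its group. No fit without it is given here for RAB4B.

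The ratio of EGLN3 to EGLN1 counts, which needs no scaling between libraries, was compared in 9 exact two-sided permutation tests over 8 libraries each. At 6 hours the ratio was 1.44 to 1.99 under T-REX and 2.09 to 2.64 under probe alone, and the difference of −0.58 on the log2 scale reached the smallest p that 4 against 4 libraries allow (exact permutation p = 0.0286, adjusted 0.257). At 12 hours the differences were −0.21 from light alone, −0.27 from probe alone and −0.17 from DMSO, with exact permutation p of 0.171, 0.200 and 0.229 (adjusted 0.257 each). A fall of EGLN3 relative to EGLN1 was not resolved by these tests, as no adjusted p in this family was under 0.257. With 9 tests, a lone smallest possible p adjusts to 0.257, so several tests at that floor would be needed to pass. All 9 differences were negative, from −0.12 against light alone to −0.59 against DMSO, both at 3 hours. Those of a time point share its T-REX libraries.

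Of the alpha subunits, HIF1A was slightly lower under T-REX. At 12 hours it measured 168, 176, 166 and 179 CPM under T-REX and 187, 202, 237 and 179 CPM under DMSO, where the highest T-REX library lay just under the lowest DMSO library. The log2 fold change of −0.22 ± 0.06 was called against DMSO (edgeR, adjusted p = 0.0242), and HIF1A was also lower under probe alone than under DMSO (167 to 171 CPM, −0.25 ± 0.06, adjusted p = 0.0269). T-REX and probe alone differed by 0.02 (95% interval −0.11 to 0.15). Neither call was stable. That of T-REX was lost without T-REX replicate 1 (adjusted p = 0.0819), T-REX replicate 3 (adjusted p = 0.0702) or DMSO replicate 2 (adjusted p = 0.0505), and that of probe alone in 6 of 8 omissions of its own libraries. Without DMSO replicate 3, at 237 CPM, the values became −0.13 (adjusted p = 0.0641) and −0.15 (adjusted p = 0.0563). Both calls were also lost when only the 2 arms compared were fitted (adjusted p = 0.136 and 0.169). DMSO replicate 3 at 12 hours was also the highest library of its group for EGLN1, EGLN3 and VHL and the lowest for EGLN2 and HIF1AN. Without it, EGLN3 was still called against DMSO, since its largest adjusted p over the omissions of a T-REX or DMSO library was 0.00376.

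At 3 hours HIF1A was 168 to 184 CPM under T-REX, below all libraries of light alone (192 to 204 CPM) and DMSO (197 to 202 CPM), but its log2 fold changes of −0.16 and −0.17 did not pass (edgeR, adjusted p = 0.189 and 0.0703). EPAS1, the alpha subunit also known as HIF2A, was not called in any of the 9 comparisons with T-REX, with log2 fold changes from −0.18 to 0.09 and 95% intervals that stayed between −0.39 and 0.35. At 12 hours it held 17.4 to 18.6 CPM under T-REX and 16.9 to 20.3 CPM over the controls.

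ARNT, VHL and HIF1AN also had no call against any control. Their log2 fold changes spanned −0.11 to 0.12, −0.11 to 0.02 and −0.01 to 0.14, and their 95% intervals stayed within −0.24 to 0.25. VHL, for example, measured 138, 148, 127 and 134 CPM under T-REX at 12 hours and 133, 148, 154 and 141 CPM under DMSO, with ranges that overlapped in part. HIF1AN came nearest to a call, with 123 to 133 CPM under T-REX and 100.5 to 124 CPM under DMSO at 12 hours (0.14 ± 0.05, adjusted p = 0.102 by edgeR).

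**Figure D1:**
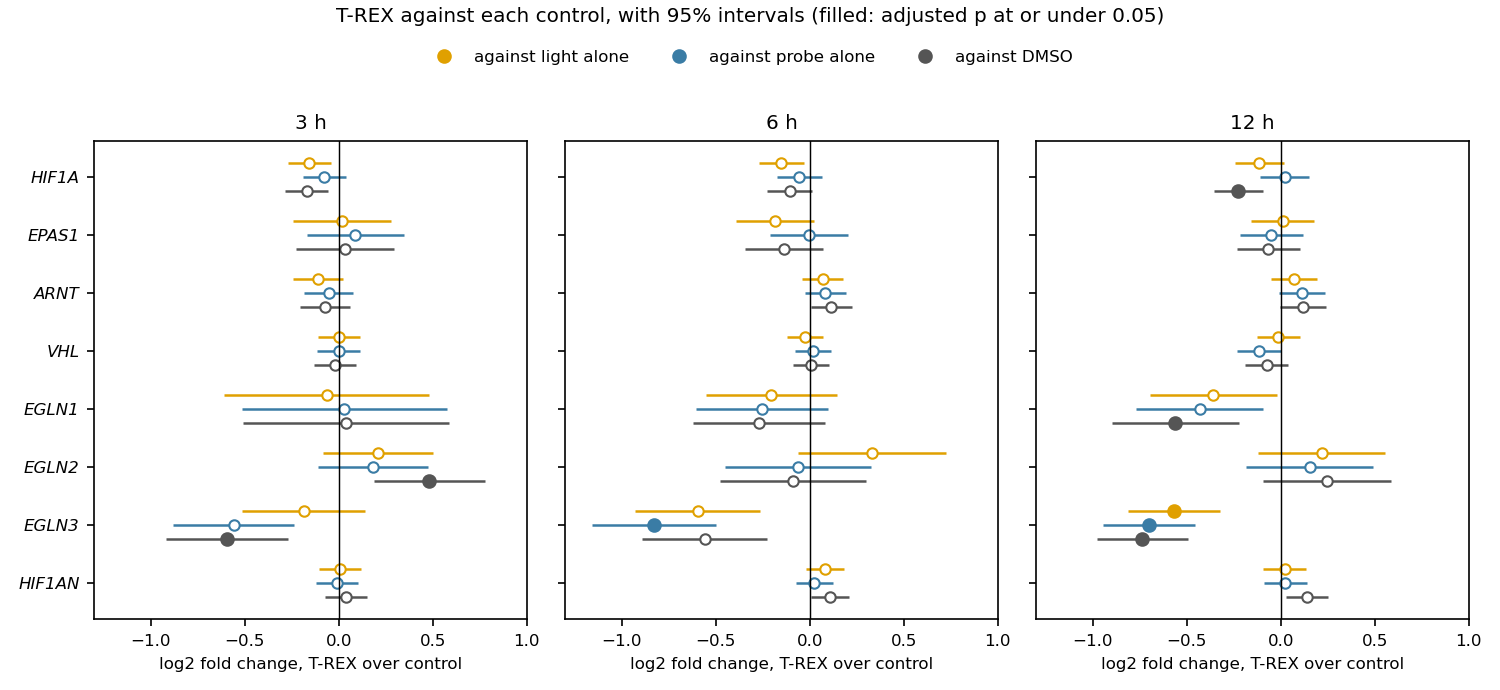
Log2 fold change of T-REX over each control (horizontal axis) for the 8 members at 3, 6 and 12 hours, with bars for 95% intervals, colors for the control, and filled points for adjusted p at or under 0.05. EGLN3 is filled against all 3 controls at 12 hours, from −0.57 to −0.74, and HIF1A and EGLN1 are filled against DMSO at 12 hours and EGLN2 against DMSO at 3 hours.

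The counts of members called were small in each comparison and are set beside the share of all genes called. At 3 hours, 0 of 8 members were called against light alone (0.197% of all genes), 0 against probe alone (1.05%) and 2 against DMSO (5.99%). At 6 hours the counts were 0 (0.218%), 1 (0.109%) and 0 (0.415%). At 12 hours they were 1 (1.29%), 1 (0.701%) and 3 (10.9%). Where edgeR called 0 members, an unadjusted p under 0.05 was found for 1 member each against light alone and probe alone at 3 hours, and for 2 against light alone and 3 against DMSO at 6 hours, while DESeq2 called 0, 1, 1 and 1 in these comparisons. The members' median log2 fold change lay between −0.10 and 0.01 in all 9 comparisons, and that of all genes between −0.00 and 0.03.

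Among the controls themselves, the members rarely differed. HIF1A under probe alone at 12 hours was the only call over 9 comparisons of controls. Light alone against DMSO gave 0 of 8 members at 3, 6 and 12 hours (0.00681%, 0.00681% and 0.0136% of all genes), and 1, 1 and 1 members had an unadjusted p under 0.05. Probe alone against DMSO gave 0, 0 and 1 (0.00681%, 0.0272% and 5.11% of all genes), with 1, 0 and 2 members at an unadjusted p under 0.05. Light alone against probe alone gave 0, 0 and 0 (0.232%, 0.0613% and 0.415%), with 1, 0 and 1 members at an unadjusted p under 0.05. Where edgeR called 0 members between controls, so did DESeq2. For EGLN3, the largest difference between controls was at 3 hours, where light alone lay below all DMSO libraries by 0.41 ± 0.15 on the log2 scale, with an adjusted p of 0.540 by edgeR.

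EPAS1 and EGLN3 rose between 3 and 12 hours in all 4 arms. The interval between 3 and 12 hours cannot be told apart from the handling of separate harvests. EPAS1 rose from 12.6 to 18.98 CPM in DMSO (means of 4 libraries), and its log2 fold changes were 0.50 in T-REX, 0.51 in light alone, 0.62 in probe alone and 0.60 in DMSO, with adjusted p of at most 5.2e-05 by edgeR. EPAS1 groups at 3 and 12 hours did not overlap in any arm. EGLN3 rose in every arm as well, by 0.49 ± 0.16 in T-REX (adjusted p = 0.00946), 0.88 ± 0.15 in light alone, 0.61 ± 0.15 in probe alone and 0.63 ± 0.15 in DMSO. EGLN3 in the T-REX arm was therefore lower than the controls at 12 hours while still above its own level at 3 hours, although the rise in T-REX did not pass without replicate 2 at 3 hours (adjusted p = 0.0782).

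Smaller shifts with time were seen in the other members. VHL fell in T-REX by 0.18, in light alone by 0.16 and in DMSO by 0.13 on the log2 scale (edgeR, adjusted p = 0.00334, 0.00857 and 0.0391), and the DMSO call was lost in 5 of 8 omissions. ARNT was called higher at 12 hours in the T-REX arm (0.31 ± 0.06, adjusted p = 3.47e-05), with 0.14 in light alone and 0.13 in probe alone not called. The interaction for ARNT was 0.18, 0.18 and 0.19 against the 3 controls (adjusted p = 0.659, 0.333 and 0.434), so the difference between arms was not shown. HIF1AN fell by 0.19 in DMSO and by 0.14 in probe alone, a call that was lost in 4 of 8 omissions of a probe alone library. HIF1A fell by 0.15 in probe alone, which was lost in 6 of 8 such omissions and came to −0.08 (adjusted p = 0.360 by edgeR) without replicate 2 at 3 hours. Over all, 4, 3, 4 and 4 of 8 members were called in the T-REX, light, probe and DMSO arms, in that order, beside 41.7%, 39.4%, 42.3% and 38.8% of all genes. No member had an interaction call against light alone (0.0204% of all genes), probe alone (0.0681%) or DMSO (0.00681%), and 1, 1 and 2 members had an unadjusted p under 0.05, with 0 calls by DESeq2 in each.

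The genes around the members in the pathway were grouped by role. None of the 9 other bHLH-PAS subunits tested was called against light alone or probe alone at 12 hours, and against DMSO ARNT2, a second beta subunit, was higher (0.35) and SIM1 lower (−0.35). None of the 8 partners of VHL in its ubiquitin ligase was called at 12 hours. Of 12 HIF coactivators and regulators, 1 was called relative to light alone, 1 to probe alone and 2 to DMSO. With 10.9% of all genes called against DMSO, such counts are no result about these groups. CITED2, which competes with HIF for its coactivators, was lower against DMSO at 12 hours (−0.65, adjusted p = 0.00072 by edgeR). The chaperone HSP90AA1 was lower against probe alone (−0.27), and VBP1, a prefoldin subunit that binds VHL, was lower against DMSO (−0.29). The ubiquitin ligase MDM2 was higher against light alone (0.26). The medians of these 3 groups were between −0.09 and 0.06.

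Some genes known to be activated by HIF fell under T-REX at 12 hours, 23 of the 63 tested being SDE and lower, and none SDE and higher. Of 24 HIF target genes of glucose metabolism tested, 9 were called lower and 0 higher against light alone, 10 and 0 against probe alone, and 11 and 0 against DMSO. Their median log2 fold changes were −0.35, −0.37 and −0.32, and 23, 23 and 22 of 24 were negative. Of 39 HIF target genes with other functions, 13, 10 and 13 were called lower and 0 higher, with medians of −0.35, −0.26 and −0.22. Beside these counts, 1.29%, 0.701% and 10.9% of all genes were called in either direction against light alone, probe alone and DMSO. Among all 14685 genes, 134 were SDE and lower. The lists were chosen with results of these libraries known, so they are no independent evidence of their direction.

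Those SDE genes included LDHA, which makes lactate from pyruvate, PFKFB3, which makes the activator of phosphofructokinase, and PDK1, which restrains pyruvate dehydrogenase. LDHA was lower by 0.69 ± 0.08, 0.63 ± 0.08 and 0.72 ± 0.08 on the log2 scale than in the light, probe and DMSO arms. It measured 342 to 421 CPM under T-REX and 480 to 679 CPM over the 12 control libraries. PFKFB3 gave −0.71, −0.58 and −0.48, and PDK1 gave −0.59, −0.51 and −0.48. SLC2A1, PGM1, TPI1, PGK1, PGAM1, ENO1 and PKM, from glucose uptake through the late steps of glycolysis, were also SDE and lower.

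Among the targets outside glucose metabolism, the chemokine receptor CXCR4 was lower by 1.04, 0.78 and 1.10 on the log2 scale, the mitophagy receptor BNIP3 by 0.81, 0.89 and 0.78, and the collagen lysyl hydroxylase PLOD2 by 0.62, 0.64 and 0.79. BNIP3 measured 31.9 to 43.7 CPM under T-REX and 54.3 to 72.1 CPM over the controls, with no overlap. At 3 hours, 1 of 63 targets was called against light alone (0.197% of all genes) and it was STC2, which was higher (0.29). Against probe alone 8 were called lower and 0 higher (1.05% of all genes called), and against DMSO 10 lower and 1 higher (5.99%). At 6 hours the counts were 0, 4 and 2, all lower, beside 0.218%, 0.109% and 0.415% of all genes called.

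**Figure D2:**
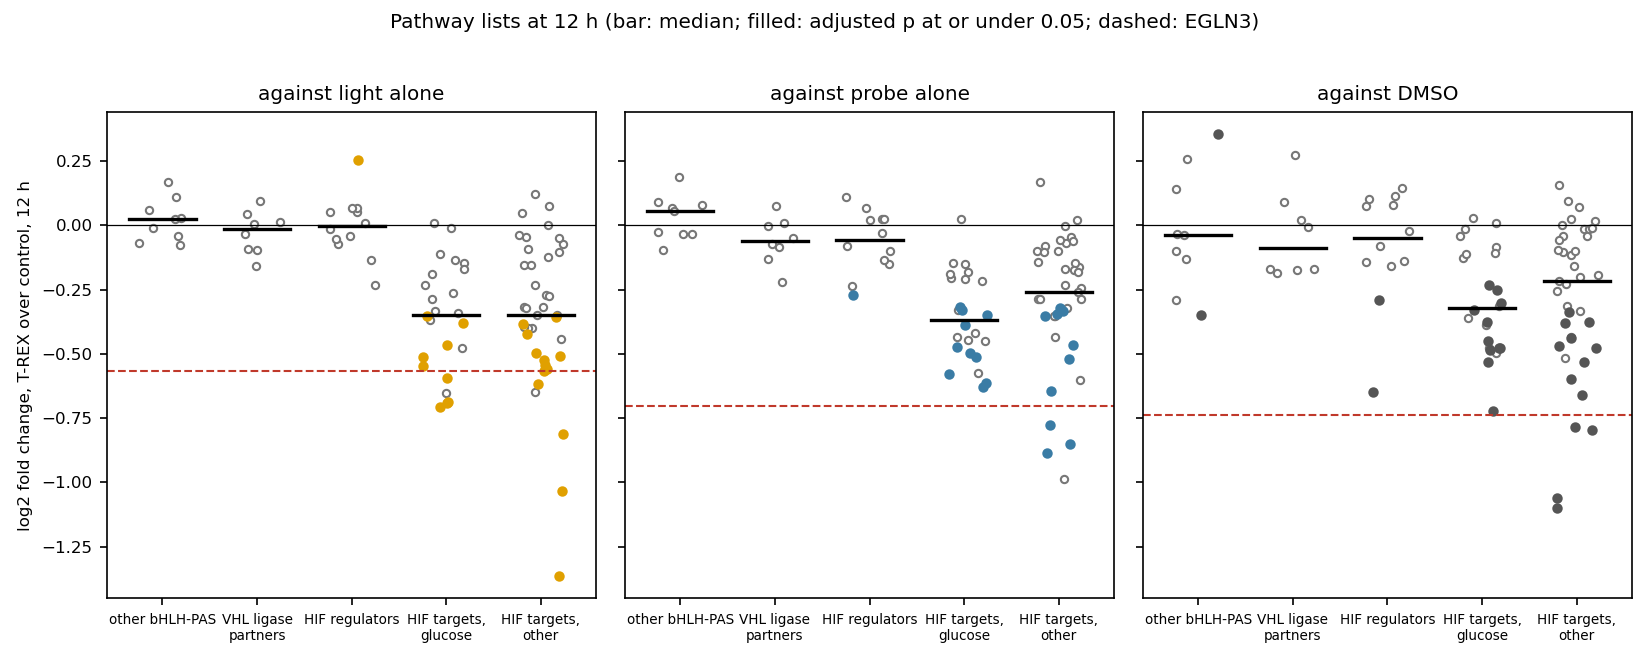
Log2 fold change of T-REX over each control at 12 hours (vertical axis) for every tested gene of 5 pathway lists, with filled points for adjusted p at or under 0.05, a bar at each list's median, a dashed line at EGLN3 and horizontal jitter without meaning. The medians of both HIF target lists lie between −0.22 and −0.37, and those of the other 3 lists between −0.09 and 0.06.

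Genes whose pattern was most like that of EGLN3 over the 48 libraries, after each time point's mean was removed, were MAP2K6 (Pearson r = 0.80), BNIP3 (0.80), MXI1 (0.79) and PLOD2 (0.78), among 12428 genes with a mean of at least 100 counts. BNIP3, MXI1 and PLOD2 are on the HIF target lists. These values are a description, since the libraries share arms and scaling. Arm means were not removed, so genes that fell with EGLN3 under T-REX correlate with it. The lists were chosen with results of these libraries known, so these matches are no independent evidence. MXI1, an antagonist of MYC, measured 63.1 to 73.8 CPM under T-REX and 76.0 to 100.2 CPM over the controls at 12 hours. The highest r of the other 7 members ranged from 0.63 for EPAS1 to 0.91 for HIF1A, and none of the 5 genes nearest to any of these members was on a HIF target list. The share of listed genes among the 12428 is not given, so this does not set EGLN3 apart from the other members. Over the 28 pairs of members, r ranged from −0.63 to 0.55.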

How the data were processed

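RNA from HEK293T cells was sequenced (bcl2fastq, per the labels), with TruSeq Stranded mRNA reagents in which, by the study's methods, depletion of ribosomal RNA took the place of poly(A) selection. Software named in the study's reporting summary includes TopHat, Cufflinks and cutadapt. The tool that made the counts per gene and the genome build are not given in the sources used here. For each time point the authors deposited raw counts per gene, which were tested, and log2 CPM, used in an alternative fit. The 2 factors of unwanted variation that the authors deposited are a score per library and served as covariates in another alternative. Tables after removal of these factors were not used.

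All 16 libraries of a time point were fitted with edgeR 4.0.16 in R 4.3.3 (TMM, filterByExpr, robust quasi-likelihood F-test), and changes with time came from 1 fit of 48 libraries. p-values were Benjamini-Hochberg adjusted over 14685 genes and called at 0.05. CPM values use TMM factors over 48 libraries. Symbols came from a gene name reference, and from GENCODE 29 where that reference held none. Exon lengths came from GENCODE 29, which held 14556 of the identifiers. Alternatives used DESeq2 1.42.0, limma 3.58.1, other scalings and omission of each library. Exact tests, likeness and figures used Python 3.11.15.

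All 8 members are described. From each list, up to 3 genes per direction and time point are named that were called alike against all 3 controls and had the largest smallest change. Of the 5 genes most like an SDE member, 4 are named and the other is not reported here, and overlapping genes and markers were named where present. Genes named beyond this rule, among them the called regulators, the further SDE targets and STC2, were chosen after their values were seen. Members, lists and tests were chosen with earlier results of these data known.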

Additional observations from a re-analysis of the deposited data

Results flagged for a closer look

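A library that stood far from the other 3 of its arm and time point was found in 4 of 96 groups of 4 libraries (8 members, 12 groups each), and chance alone gives about 1 in 20 groups. EPAS1 in DMSO replicate 1 at 6 hours was 15.6 CPM, against 17.7 to 17.8 CPM in the others. ARNT under light alone replicate 3 at 6 hours was 90.1 CPM, against 101 to 103 CPM. VHL in DMSO replicate 3 at 3 hours was 139 CPM, against 161 to 166 CPM. EGLN3 in DMSO replicate 2 at 3 hours was 9.96 CPM, against 11.1 to 11.2 CPM, and this lowest library still lay above all 4 T-REX libraries of that time (5.004 to 8.67 CPM). No member had an interaction call for its T-REX effect between 12 and 3 hours, which does not show that the effects were equal.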

How the results depend on the processing

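Over 25 comparisons, all 771 alternative values of called members kept their direction, and 711 stayed past the threshold. The 771 values include omissions of libraries from arms outside the comparison, which leave its log2 fold change nearly unchanged. They also include the fit without the filter on low counts, which repeats the main fit because every gene passed. EGLN3 at 12 hours remained called against all 3 controls under each of the 8 alternatives that kept every library, that repeated fit among them. With the deposited factors as covariates, members called were 1 and 1 against light alone and probe alone at 3 hours, 2 and 1 against light alone and DMSO at 6 hours, and 2 and 5 against light alone and DMSO at 12 hours, and SDE members were 2, 1 and 2 at 3, 6 and 12 hours. Between controls these factors gave 1, 1, 1, 2 and 1 members (light alone against DMSO and against probe alone at 3 hours, then light alone against DMSO, probe alone against DMSO and light alone against probe alone at 12 hours). DESeq2 gave 1 against probe alone at 3 hours and 1 each against light alone and DMSO at 6 hours, with 1 SDE member, EGLN3, at 3 and at 6 hours. With only the 2 arms compared, counts against DMSO were 0, 1 and 1 at 3, 6 and 12 hours, SDE members at 6 hours 1, probe alone against DMSO 0 and light alone against probe alone 1 at 12 hours. The cause was not tested. The share of all genes called under each alternative is not given here, so these counts show no change particular to the members.

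Without 1 library, members called ranged from 0 to 1 against probe alone and from 0 to 3 against DMSO at 3 hours, from 0 to 1 against each control at 6 hours, and from 0 to 1 against light alone and 1 to 5 against DMSO at 12 hours. SDE members ranged from 0 to 1 at 3 and 6 hours, probe alone against DMSO at 12 hours from 0 to 1, and 12 against 3 hours in probe alone from 2 to 4. For these omissions the share of all genes called is not given either, so the ranges show nothing particular to the members.

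Under the deposited factors, the HIF target genes called against the 3 controls (light, probe, DMSO) were 10, 25 and 17 at 3 hours, 12, 17 and 13 at 6 hours, and 35 and 33 against light alone and probe alone at 12 hours. DESeq2 gave 4 and 13 against light alone and probe alone at 3 hours and 4, 12 and 6 at 6 hours. With 2 arms only they were 0, 0 and 4 at 3 hours, 7 and 9 against probe alone and DMSO at 6 hours, and 36 and 33 against light alone and probe alone at 12 hours. Here too the share of all genes called is not given, so the counts show no change particular to HIF targets.

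Replicate numbers recur across arms, but only 25 of 72 pairs of same-numbered libraries had a correlation of deviations over 0.1 (median −0.00), and 24 of 72 correlated best with their own number. At 6 hours, among T-REX, light alone and probe alone, 9 of 12 pairs were over 0.1 and 10 of 12 matched best with their own number, a hint of pairing from the data that the DMSO arm does not share. The labels tie no number to a shared culture, and no comparison had all pairs over 0.1. With the replicate block, HIF1A was also called against DMSO at 3 hours (−0.17), EGLN3 at 12 hours stayed at −0.73 against DMSO, and 2 HIF targets were called against light alone at 3 hours. Low counts of EGLN1 and EGLN2 limit what could be resolved for them.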
